A study of Homo sapiens with 47 samples.

Results

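The JUN family loci are the genomic surroundings of JUN, JUNB and JUND, the 3 genes that encode the Jun subunits of the transcription factor AP-1. All deposited peaks, islands and intervals that overlap the hg19 windows 59.20 to 59.30 Mb of chromosome 1 (JUN), 12.89 to 12.92 Mb of chromosome 19 (JUNB) and 18.38 to 18.41 Mb of chromosome 19 (JUND) were taken as members. There were 367 of them among 2305813 in the whole series. They comprised 313 ATAC-seq peaks from 20 libraries, 44 H3K27ac peaks from 4 libraries, 9 H3K9me3 islands from 8 libraries and 1 interval of a fold-change table that the authors deposited for 451Lu.

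The series followed open chromatin (ATAC-seq, which maps where the transposase Tn5 can cut), H3K27ac (an acetylated histone typical of promoters and enhancers in use) and H3K9me3 (a mark of heterochromatin) in the human melanoma cell lines 451Lu and WM983B. Resistant cells had been made resistant to the BRAF inhibitor vemurafenib, and were compared with parental cells of the same line. The engineered 451Lu cells over-expressed c-JUN and c-FOS (AP1, compared with vector), carried a short hairpin RNA against p150, which is the name of the large subunit of the chromatin assembly factor CAF-1 (shp150, compared with NT), or carried both (shp150_AP1, compared with vector_NT). Every ATAC-seq and H3K9me3 group had 2 libraries, and H3K27ac had 1 list for each of resistant and parental cells of the 2 lines. The sources used here give neither the promoter of the construct, nor whether the cells are single clones, nor the drug exposure at harvest, nor what NT stands for. Separate cultures for the replicates are not stated, so their spread, and each p-value with it, may be technical only.

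AP-1 is a dimer of a Jun protein with another Jun, a Fos or an ATF protein, and it binds the TRE motif TGACTCA and related sites. JUN (c-Jun) and JUNB are immediate early genes that growth factor and stress signals switch on within minutes, and JUN protein acts on its own promoter through a TRE-like site. JUNB and JUND often act more weakly than JUN or oppose it, and JUND is the member expressed most steadily across tissues. AP-1 activity is a known feature of melanoma cells that have lost melanocyte traits under BRAF inhibition.

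The promoters of the 3 genes are shown because each lies at a site that was listed as open in nearly every library, and because JUN is known to bind its own promoter. The letters are the 250 bases before the start of each gene from RefSeq (GRCh38.p14; JUN and JUND on the minus strand of chromosomes 1 and 19, JUNB on the plus strand of chromosome 19), and capitals mark TGACATCA and TGACGTCA.
JUN: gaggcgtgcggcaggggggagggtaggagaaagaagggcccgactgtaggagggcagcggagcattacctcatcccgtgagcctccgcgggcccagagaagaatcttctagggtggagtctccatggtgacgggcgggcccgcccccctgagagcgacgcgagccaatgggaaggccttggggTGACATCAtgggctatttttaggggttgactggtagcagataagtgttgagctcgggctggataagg
JUNB: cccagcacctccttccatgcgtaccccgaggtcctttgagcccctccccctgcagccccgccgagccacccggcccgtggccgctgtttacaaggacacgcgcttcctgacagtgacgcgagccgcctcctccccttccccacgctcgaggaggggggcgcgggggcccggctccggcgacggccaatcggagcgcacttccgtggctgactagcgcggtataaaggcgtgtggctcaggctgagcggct
JUND: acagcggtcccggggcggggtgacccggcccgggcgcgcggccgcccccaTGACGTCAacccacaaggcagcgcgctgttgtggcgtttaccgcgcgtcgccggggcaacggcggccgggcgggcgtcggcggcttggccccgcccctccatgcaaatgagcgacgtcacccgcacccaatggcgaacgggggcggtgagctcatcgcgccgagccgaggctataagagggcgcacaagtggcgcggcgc
Windows of 300 bases, which reach 50 bases past the start, were searched on both strands for TGACTCA, the CRE motif TGACGTCA, TGACATCA and, for comparison, CCAAT. The JUN window held TGACATCA, its first base 67 bases before the start, as did 2.61% of the 35116 promoters of the table. JUND held the palindrome TGACGTCA 200 bases before its start, found in 1.85% of promoters. TGACTCA, found in 4.95% of promoters, occurred in none of the 3, and CCAAT, found in 34.6%, occurred in all 3 with no overlap with the other motifs. A match is a run of letters and not a measured binding site.

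No hg19 annotation or genome was used here, so regions are given by their hg19 position and were not assigned to genes from a file. As background knowledge of hg19, the starts of the 3 genes fall in the regions called start sites here, and JUN, which has a single exon, runs from its start site towards lower coordinates. In the GRCh38 gene order JUN-DT, a non-coding RNA gene, adjoins JUN, while HOOK2, MIR5684 and PRDX2 lie next to JUNB, and IQCN and MIR3188 next to JUND. Peaks away from the start sites may therefore belong to other genes.

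The ATAC-seq lists differed in length, from 42898 to 94550 peaks in 451Lu and from 129339 to 147988 in WM983B, and the lowest scores were 2.0 in 451Lu and 1.3 in WM983B. The WM983B lists followed replicate number more closely than label: the base overlap (Jaccard index) was 0.578 between the resistant and parental libraries numbered 1 and 0.609 between those numbered 2, against 0.509 between the resistant and 0.510 between the parental replicates. In 451Lu it was 0.715 between resistant and 0.726 between parental replicates, and 0.630 and 0.631 between resistant and parental libraries of the same number. WM983B values are therefore also given by replicate number, and its p-values and calls by label take no account of that grouping. The score of a peak is the authors' own value and ranks it within its list. Scores of separate lists share no scale, so those of several libraries are printed side by side as deposited values and not compared. Sequencing depth is unknown for the peak lists.

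Merging the 20 ATAC-seq lists gave 27 open regions in the 3 windows, 15 at JUN, 8 at JUNB and 4 at JUND. Of these 5 (18.5%) were called in all 20 libraries, where the share over the whole genome was 11.7% of 208946 regions, and 2 were called in 1 library only. The 5 were the start sites of JUN and JUND, a pair of regions flanking JUN on either side, and a region at the far end of the JUNB window. A region counted as called when a peak covered at least 1 bp of it.

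The JUN start site, chromosome 1, 59248933 to 59250386, was open in every library and scored in the upper part of each list. In 451Lu the score was 45.0 and 49.2 in resistant against 41.2 and 50.7 in parental cells. It was 19.8 and 14.0 in AP1 against 21.7 and 24.0 in vector cells, 14.9 and 15.8 in shp150 against 22.3 and 14.7 in NT cells, and 36.9 and 26.0 in shp150_AP1 against 37.0 and 30.8 in vector_NT cells. In WM983B it was 20.7 and 34.4 in resistant against 26.7 and 22.9 in parental cells. The best peak of the site scored above 67.3% to 96.0% of the peaks of its own list, the lowest share being that of AP1 replicate 2. The neighbouring region, 59250561 to 59251124, was weaker (scores 4.46 to 8.99) and was called in 11 of the 20 libraries. Among them were all 4 of WM983B and all resistant, parental and vector_NT libraries of 451Lu. No AP1, vector, shp150 or NT library called it, and their lists were the shortest (42898 to 56824 peaks). The library of shp150_AP1 replicate 2 had no call either.

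A peak over the body of JUN was the feature that set the construct libraries apart within 451Lu. The region, chromosome 1, 59247944 to 59248697, had a peak in the 2 AP1 and the 2 shp150_AP1 libraries. The remaining 12 libraries of 451Lu, those of resistant cells included, had none there. Its scores were 26.4 and 26.6 in shp150_AP1 cells, where the peaks were 753 and 739 bp wide, and 18.8 and 11.6 in AP1 cells, where they were 551 and 557 bp wide. In shp150_AP1 replicate 2 it scored about as high as the start site (26.6 and 26.0), and the 4 peaks scored above 81.0%, 80.0%, 82.6% and 58.1% of their lists. It was the only gain of the JUN window in AP1 and in shp150_AP1 cells, where 1.60% and 5.19% of all regions of the genome were gained and 2.86% and 3.26% lost. Since this site was known from earlier results of these data, no test was made of it.

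The same site was also open in WM983B, whose cells carry no construct according to the labels. All 4 WM983B libraries called it, with scores of 14.0 and 3.78 in resistant cells and 9.03 and 5.16 in parental cells. These peaks scored above 78.4% and 11% of the resistant lists and 63.6% and 39.1% of the parental lists. The peaks followed the replicate number and not the label: in the libraries numbered 1 they were 580 bp wide in resistant and 557 bp wide in parental cells, and in those numbered 2 they were 102 and 127 bp wide. The wide WM983B peaks, 59248018 to 59248597 and 59248034 to 59248590, had nearly the same edges as the AP1 peaks, 59248012 to 59248562 and 59248045 to 59248601. Over all 20 libraries no region of the JUN window was therefore particular to the construct, and the site was construct-only within 451Lu. None of the 4 H3K27ac lists, which come from resistant and parental cells, had a peak in it.

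**Figure D1:**
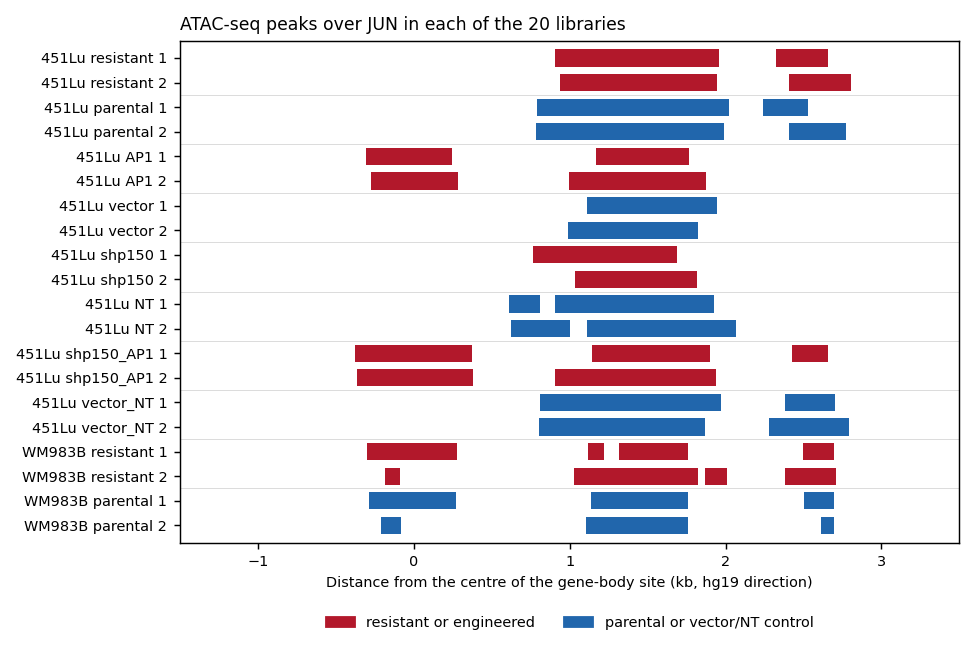
ATAC-seq peaks (bars) over JUN in each of the 20 libraries, with the distance from the centre of the gene-body site in kb on the x axis and libraries named by line, group and replicate number on the y axis; red bars are resistant or engineered cells and blue bars their controls. The peak at 0 kb appears in the 2 AP1, the 2 shp150_AP1 and the 4 WM983B libraries and in no other, while the start site to its right is open in all 20.

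A peak list cannot tell reads of an introduced JUN copy from reads of the native gene, and which of them gave the 451Lu peaks was not tested. FOS, the other gene of the construct, was examined in the same way. In shp150_AP1 cells a region at chromosome 14, 75747611 to 75748034, was called in both libraries (scores 8.55 and 5.16), and another at 75746592 to 75746794 in replicate 1 (6.66). Neither was called in any other of the 20 libraries, those of AP1 cells and of WM983B included. The first of these was the only FOS region gained in shp150_AP1 cells, where 5.19% of all regions were gained. AP1 lists were shorter (50194 to 55840 peaks) than those of shp150_AP1 cells (84393 to 88478), and no difference between these groups was tested.

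The regions most like the JUN gene-body site were sought by the number of the 20 libraries with the same call. Since the pattern was read from the site itself, their number is a description and supports nothing about it. Of 208946 regions 4 others differed from it in 1 library. They lay at chromosome 15, 91474954 to 91475415, at chromosome 14, 51421618 to 51421971, at chromosome 1, 108479721 to 108480076, and at chromosome 10, 82289969 to 82290280. In construct libraries the smallest score was 5.33 at the first and 3.25 at the next of these, and 11.6 at the JUN site, and the last pair was called in 3 of the 4 construct libraries. Only the JUN site and the chromosome 14 region (0.000957% of regions) were called in all 4 construct libraries and none of the other 12 of 451Lu.

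The flanking sites of JUN were shared by nearly all libraries. The site on the low side, 59220765 to 59221670, had scores of 42.4 and 49.8 in resistant against 22.7 and 21.4 in parental 451Lu cells, and of 36.6 and 45.8 in resistant against 26.3 and 40.1 in parental WM983B cells. The site was among those open in every library of both lines. Its score was 9.22 and 12.8 in AP1 against 13.8 and 20.3 in vector cells, 13.7 and 16.5 in shp150 against 39.3 and 32.5 in NT cells, and 19.8 and 37.8 in shp150_AP1 against 15.6 and 24.6 in vector_NT cells.

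On the high side, the region 59280628 to 59282422 was called in all 20 libraries (scores 8.43 to 30.3) and the region 59289140 to 59289794 in 19 (4.60 to 26.6), the exception being vector replicate 1. At the outer one the scores were 17.8 and 22.7 in resistant against 9.20 and 10.9 in parental 451Lu cells, and 22.3 and 26.6 in shp150_AP1 against 4.60 and 8.20 in vector_NT cells. In AP1 cells they were 7.05 and 8.03, against 8.19 in the vector library that called it. In shp150 cells they were 14.9 and 8.91, against 21.6 and 14.3 in NT cells, and in WM983B 9.88 and 11.0 in resistant against 12.03 and 11.1 in parental cells.

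Between the low flank and the gene, WM983B had open sites that 451Lu lacked. Regions at 59228942 to 59229187 (scores 4.97 to 17.3) and 59229953 to 59230233 (2.36 to 10.2) were called in all 4 WM983B and in none of the 16 451Lu libraries, a pattern held by 4.70% of all regions. Another region, 59234863 to 59235244, was called in all 4 WM983B libraries (5.62 to 13.6) and in 2 of 451Lu, resistant replicate 2 (2.82) and vector_NT replicate 2 (4.10). Further out, 59205663 to 59205791 was called in 3 and 59210848 to 59211001 in 2 WM983B libraries, with scores of at most 4.34, and in none of 451Lu. In the other direction, 59264552 to 59264987 was called in 4 and 59275036 to 59275461 in 5 451Lu libraries and in none of WM983B, with scores of at most 6.21. WM983B lists were longer, and 7 of the 27 regions of the 3 windows (25.9%) were called in WM983B only, against 37.6% of regions in the whole genome.

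**Figure D2:**
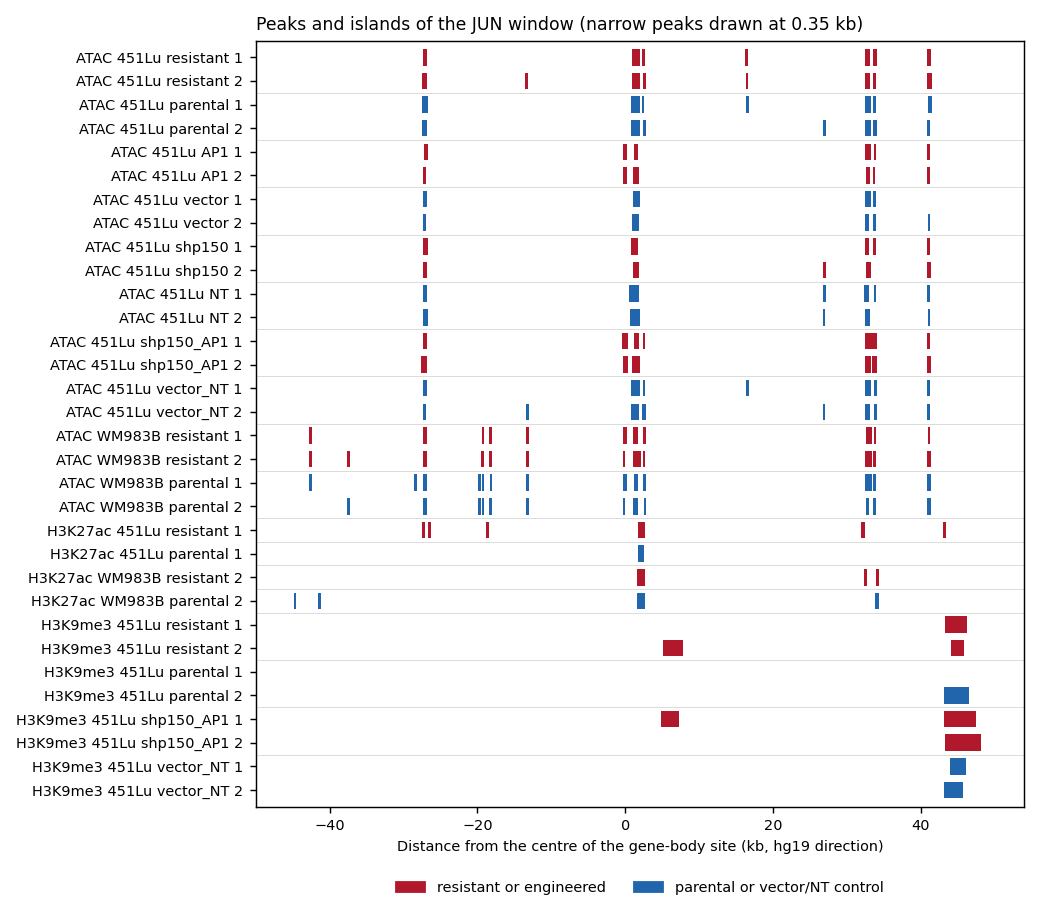
Peaks and islands (bars) of the JUN window for the 3 assays, with the distance from the centre of the gene-body site in kb on the x axis and 1 library per row; red bars are resistant or engineered cells and blue bars their controls. In the ATAC-seq rows the start site, the low flank and the inner region of the high flank are open in all libraries. The outer region of the high flank is open in all but vector replicate 1. The sites at negative distances between the low flank and the gene belong mostly to WM983B, and 7 of the 9 H3K9me3 islands lie near the high end of the window.

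The bases of a window covered by ATAC-seq peaks were compared between groups by exact two-sided permutation tests over the 4 libraries. With 2 libraries against 2 the smallest p is 0.333, so no comparison could pass 0.05. Over the 21 tests of the 3 loci, 15 on ATAC-seq peaks and 6 on H3K9me3 islands, the adjusted p was at least 0.875.

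In the JUN window the open length of construct cells depended on the gene-body site. Peaks covered 3131 and 3031 bp in AP1 against 2348 and 2397 bp in vector cells (means 3081 ± 70.7 and 2373 ± 34.7 bp, SD, n = 2 each). They covered 4274 and 4481 bp in shp150_AP1 against 3986 and 4021 bp in vector_NT cells, a difference of 374 bp that was 952.5 bp with a minimum score of 5. These lengths include a site chosen for its calls in these groups. Their tests are counted among the 21 above, but nothing is read from them. Without the bases of the gene-body site, an alternative chosen after the data were seen, AP1 cells covered 2580 and 2474 bp against 2348 and 2397 bp in vector cells, a difference of 154.5 in place of 708.5 bp (exact permutation p = 0.333). The shp150_AP1 cells then covered 3521 and 3742 bp against 3986 and 4021 bp in vector_NT cells, a difference of -372 in place of 374 bp (exact permutation p = 0.333).

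Resistant 451Lu cells covered 3898 and 4249 bp of the JUN window against 4226 and 4301 bp in parental cells, and the groups overlapped (exact p = 0.667). No region of this window was gained or lost there, while 9.79% of all regions were gained and 3.96% lost in resistant 451Lu cells. The shp150 cells covered 2857 and 2736 bp against 3579 and 3214 bp in NT cells without overlap (exact p = 0.333), but with lists of equal length the mean difference was -56.5 in place of -600.0 bp. In WM983B, resistant cells covered 3432 and 4394 bp and parental cells 3810 and 3394 bp. The resistant library was lower among those numbered 1 and higher among those numbered 2. One weak region, 59228567 to 59228702, was lost by label (parental scores 3.94 and 3.16), where 1.22% of all regions were lost.

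**Figure D3:**
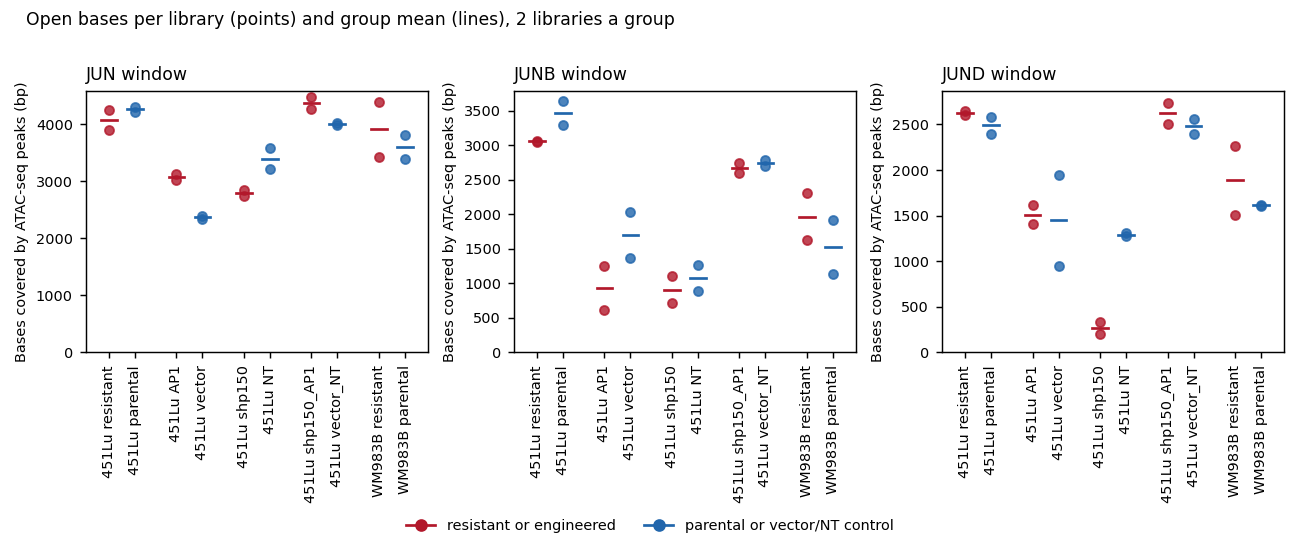
Bases covered by ATAC-seq peaks (bp, y axis) in the 3 windows, per library (points) with group means (lines, n = 2), each resistant or engineered group (red) left of its control (blue). With the gene-body site included, the AP1 libraries lie above the vector libraries at JUN (3131 and 3031 against 2348 and 2397 bp), and the shp150 libraries lie below the NT libraries at JUND (331 and 200 against 1280 and 1306 bp).

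The JUNB start site, chromosome 19, 12902081 to 12902702, was called in 19 of 20 libraries. Its scores were 23.1 and 20.2 in resistant against 11.5 and 14.9 in parental 451Lu cells. In WM983B they were 4.36 and 9.45 in resistant against 6.80 and 5.35 in parental cells. AP1 replicate 2 was the library without a call. AP1 cells had a score of 7.56 in replicate 1 and no call in replicate 2, against 6.39 and 7.68 in vector cells. The other engineered groups scored 7.06 and 6.11 in shp150 against 11.3 and 7.95 in NT cells, and 10.01 and 16.3 in shp150_AP1 against 14.8 and 11.2 in vector_NT cells.

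Next to it, the region 12900462 to 12901343 was called in 18 libraries (scores 4.44 to 31.1), all but AP1 replicate 2 and shp150 replicate 2. The region 12904300 to 12904917 was called in 14 (scores 5.41 to 14.8). Among them were all resistant, parental, shp150_AP1 and vector_NT libraries of 451Lu and all of WM983B. The libraries without a call were of AP1, vector, shp150 and NT cells, the groups with the shortest lists. The far region 12917042 to 12918049, on the side of PRDX2 and RNASEH2A, was called in all 20 (5.84 to 30.4). The region 12912310 to 12913128 was called in 10 451Lu and in no WM983B library (4.03 to 8.23).

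Resistant 451Lu cells had less open length at JUNB than parental cells, 3054 and 3055 against 3636 and 3290 bp (exact permutation p = 0.333, no overlap). The difference of -408.5 bp was -235.5 bp without parental replicate 1, and -216.0 bp, with overlap, at a minimum score of 5. This window held the 2 regions lost in resistant cells, 12893343 to 12893760 (parental scores 4.93 and 6.20) and 12907278 to 12907609 (4.65 and 7.51), and no gain. With a minimum score of 5 neither was counted as lost. Over the whole genome, 3.96% of regions were lost and 9.79% gained in resistant 451Lu cells. AP1 cells covered 1248 and 620 bp against 2028 and 1373 bp in vector cells without overlap (exact p = 0.333). They neither gained nor lost a region of this window, where 1.60% of all regions were gained and 2.86% lost. The mean difference of -766.5 bp was -452.5 bp without AP1 replicate 2 and -439.0 bp without vector replicate 1. With lists of equal length it was -559.5 bp (exact permutation p = 0.667). The shp150 cells covered 1111 and 711 bp against 1266 and 892 bp in NT cells, and shp150_AP1 cells 2595 and 2738 bp against 2705 and 2781 bp in vector_NT cells, with overlap in both.

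In WM983B, resistant cells covered 1623 and 2304 bp of the JUNB window and parental cells 1138 and 1925 bp. The groups overlapped, and the resistant library was higher within each replicate number. The region 12893754 to 12893942 was gained by label (resistant scores 4.32 and 4.09), where 1.47% of all regions were gained. In the merge of all 20 libraries it was part of the region 12893275 to 12893942. That region also holds 12893343 to 12893760, which was lost in resistant 451Lu cells. WM983B parental replicate 2 had a peak elsewhere in it (12893275 to 12893378, score 3.78).

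JUND was open around its start in every library, and the shp150 libraries had the fewest covered bases there. The start site, chromosome 19, 18391913 to 18393357, was covered by a peak of 331 bp (score 5.34) and one of 200 bp (4.50) in shp150 cells, against 657 bp (10.9) and 681 bp (11.7) in NT cells. The 2 shp150 peaks lay apart, at 18392488 to 18392818 and 18392155 to 18392354, and outscored 26.2% and 15.6% of their lists, where the NT peaks outscored 53.5% and 65.3%. In the other groups of 451Lu the scores were 21.5 and 35.6 in resistant against 21.5 and 27.2 in parental cells, 10.1 and 9.57 in AP1 against 12.2 and 11.8 in vector cells, and 28.4 and 27.4 in shp150_AP1 against 14.5 and 21.5 in vector_NT cells. In WM983B they were 10.2 and 24.0 in resistant and 10.4 and 12.2 in parental cells.

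Further along the window, the region 18402398 to 18403560 was called in 17 of 20 libraries. It was absent from both shp150 libraries and from vector replicate 1. Both NT libraries called it (scores 8.63 and 7.33), so that it was lost in shp150 cells, as were 7.51% of all regions, while none was gained, against 0.747% of all regions. The neighbouring region 18403682 to 18404500 was called in 13 libraries, with scores of at most 10.6, and in no shp150 or NT library. The shp150 cells thus covered 331 and 200 bp of the JUND window against 1280 and 1306 bp in NT cells, a difference of -1027.5 bp (means 265.5 ± 92.6 and 1293 ± 18.4 bp, SD, n = 2 each, exact permutation p = 0.333). The shp150 lists were the shortest of the ATAC-seq lists (43913 and 42898 peaks, against 55609 and 53419 in NT cells). With lists of equal length the difference was the same, but that cut removes only the lowest-scoring peaks. The NT peaks of this window outscored 39.7% to 65.3% of their lists and stayed in. The cut is therefore no check on weaker signal in shp150 cells.

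In the combined cells the groups lay close together. The shp150_AP1 libraries covered 2500 and 2740 bp of the JUND window against 2393 and 2561 bp in vector_NT cells, and the groups overlapped (exact p = 0.667). Whether the 2 contrasts differ was not tested. Resistant 451Lu cells covered 2601 and 2649 bp against 2392 and 2584 bp in parental cells without overlap (exact p = 0.333). That difference of 137 bp was 41 bp without parental replicate 1, 233 bp without parental replicate 2 and 237 bp at a minimum score of 5. AP1 cells covered 1612 and 1403 bp against 944 and 1950 bp in vector cells, and with lists of equal length, or with a minimum score of 5, the difference was 363 in place of 60.5 bp. In WM983B the values were 1512 and 2263 bp in resistant and 1610 and 1615 bp in parental cells. A region at lower coordinates, 18390366 to 18390525, was gained there by label (resistant scores 3.57 and 5.15), where 1.47% of all regions were gained.

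**Figure D4:**
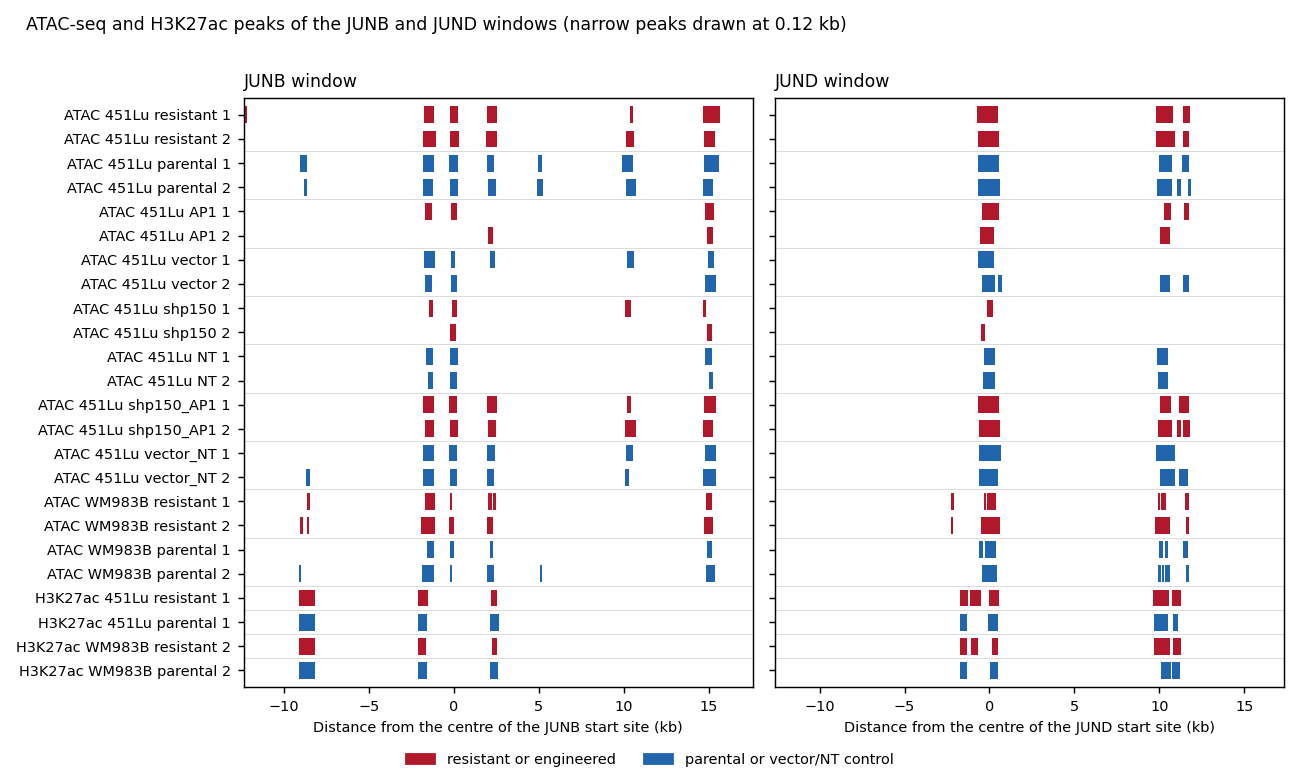
ATAC-seq and H3K27ac peaks (bars) of the JUNB and JUND windows, with the distance from the centre of each start site in kb on the x axis and 1 library per row; red bars are resistant or engineered cells and blue bars their controls. In the JUND window the shp150 rows hold a single narrow peak at the start, and both NT rows also hold a peak to its right.

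H3K27ac peaks overlapped the start sites of JUN and JUND in all 4 lists and the JUNB start site in none. Of the 17 regions of the 4 lists, 8 (47.1%) were in all 4 lists, against 12.9% of the 93938 regions of the whole genome. They were 1 at JUN, 3 at JUNB and 4 at JUND. With 1 list for each group, differences in H3K27ac have no replicate check and no test. The lists also differed in length, with 51710 peaks in resistant and 32304 in parental 451Lu cells. In WM983B they held 36022 peaks in resistant and 50336 in parental cells. The scores below, and the share of a list that a peak outscores, depend on the list.

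At JUN, the shared H3K27ac peak lay over the upstream edge of the start site, 59249966 to 59250991. Its score was 87.9 in resistant against 33.3 in parental 451Lu cells and 56.1 in resistant against 37.1 in parental WM983B cells, and it outscored 98.8% of the resistant and 92.0% of the parental 451Lu list. The resistant 451Lu list had 5 further peaks in this window, all weak (scores 4.18 to 5.99), that the parental list lacked. One of them lay over the low flank site (4.50) and another touched the high flank (5.99). In 451Lu 6 of the 14 regions of the 3 windows were resistant-only and 0 parental-only, where 50.3% and 19.9% of all regions were. With lists of equal length both counts were 1. In WM983B 2 of 13 were resistant-only and 2 parental-only, where 21.2% and 43.8% of all regions were.

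At JUNB the 3 shared peaks kept to the same places in all lists. The peak at 12893251 to 12894199 scored 84.3 in resistant against 43.7 in parental 451Lu cells and 78.2 in resistant against 57.0 in parental WM983B cells. The peak at 12900252 to 12900869, over the open region next to the start site, scored 67.8 in resistant against 20.7 in parental 451Lu cells. In WM983B it scored 36.9 in resistant against 59.5 in parental cells. The peak at 12904514 to 12905019, which overlaps the open region at 12904300, scored 6.001 in resistant against 21.1 in parental 451Lu cells and 7.35 in resistant against 17.0 in parental WM983B cells.

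JUND had the strongest H3K27ac peak of parental 451Lu cells in the 3 windows. This peak, 18392564 to 18393203 over the start site, scored 47.7 in resistant against 95.3 in parental 451Lu cells and 14.8 in resistant against 32.7 in parental WM983B cells. A peak at lower coordinates, 18390877 to 18391370, scored 69.2 in resistant against 39.6 in parental 451Lu cells and 40.8 in resistant against 35.2 in parental WM983B cells. Between them, 18391516 to 18392114 was called in the resistant lists of both lines (11.4 and 17.4) and in neither parental list. Of all regions, 50.3% were resistant-only in 451Lu and 21.2% in WM983B, and the share that was so in both lines was not computed. At the pair further along, 18402286 to 18403321 and 18403375 to 18403929, the scores were 24.0 and 20.01 in resistant against 8.45 and 3.24 in parental 451Lu cells, and 13.0 and 18.0 in resistant against 9.48 and 8.41 in parental WM983B cells.

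H3K9me3 islands were absent from the JUNB and JUND windows in all 8 libraries and were few at JUN. The deposited islands hold counts of ChIP and input reads and the authors' fold, which is not the plain ratio of the counts. The main island of resistant replicate 2, for example, had 95 ChIP and 92 input reads and a fold of 1.52. The main island lay near the high end of the JUN window, within 59291401 to 59296400, and overlapped no open region of the 20 ATAC-seq lists. The nearest of these, the outer region of the high flank, ended at 59289794. A weak H3K27ac peak of resistant 451Lu cells, 59291333 to 59291613 (score 4.84), overlapped the low edge of this span. The main island had 157 ChIP reads (fold 1.84) and 95 (1.52) in resistant cells, against 141 (2.52) in parental replicate 2 and no island in parental replicate 1. It had 133 (2.10) and 176 (2.01) in shp150_AP1 against 177 (2.34) and 150 (2.62) in vector_NT cells. The island was thus listed in 7 of 8 libraries. The input behind the list of shp150_AP1 replicate 1 was not named.

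A second island, upstream of the start site, was listed in 1 resistant library (replicate 2, 59253401 to 59256200, 127 ChIP reads, fold 1.88) and in 1 shp150_AP1 library (replicate 1, 59253201 to 59255600, 79 reads, fold 2.45), and in no parental or vector_NT library. Islands covered 6800 and 4800 bp of the JUN window in shp150_AP1 against 2200 and 2600 bp in vector_NT cells without overlap (exact permutation p = 0.333), and 3000 and 4600 bp in resistant against 0 and 3400 bp in parental cells with overlap. No H3K9me3 region of the windows was gained or lost, where 3.06% of all regions were gained and 17.7% lost in resistant cells, and 1.87% and 13.8% in shp150_AP1 cells.

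In the authors' deposited table of 1848 intervals, 1 interval reached a window. It starts at 18400000 and ends at 18480000 on chromosome 19 and so covers only the far part of the JUND window. In that table its log2 fold change was -0.81 (SE 0.27, with the authors' adjusted p at 0.00405 from DESeq2-style columns), and 41.2% of intervals had a negative fold change at an adjusted p below 0.05. The table does not name its groups, so the direction cannot be given. No interval of the authors' deposited table reached JUN or JUNB, the nearest ones lying 1700 kb and 180 kb away.

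The 7 other AP-1 genes examined (FOS, FOSB, FOSL1 and FOSL2 of the Fos family, and the partners ATF3, BATF and BATF3) are given as counts. Resistant 451Lu cells gained 4 and lost 1 of 28 regions there, against 0 gained and 2 lost of 21 in the JUN family windows, where 9.79% of all regions were gained and 3.96% lost. AP1 cells gained and lost 0 of 19 regions there, against 1 gained and 0 lost of 14, where 1.60% of all regions were gained and 2.86% lost. The shp150 cells gained 1 and lost 5 of 20 regions there, against 0 gained and 1 lost of 12, where 0.747% of all regions were gained and 7.51% lost. The shp150_AP1 cells gained 2 and lost 1 of 29, against 1 gained and 0 lost of 18, where 5.19% of all regions were gained and 3.26% lost. In WM983B, resistant cells gained 2 and lost 0 of 49, against 2 gained and 1 lost of 28, where 1.47% of all regions were gained and 1.22% lost. No difference between the 2 sets of genes was tested.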

How the data were processed

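The deposited lists were used as the authors made them. Per the submitters' processing notes the build was hg19 and the tools included Bowtie2, MACS2, Picard, SICER, deepTools and STAR 2.5.3, with no role or order. Thresholds, read filters and Tn5 shifts: not given in these sources. Each ATAC-seq and H3K27ac peak carries a score from the authors. The deposited island files give ChIP and input read counts, a p-value, a false discovery rate and a fold of ChIP over input. That fold differs from the plain ratio of the counts. The authors' interval table gives a mean signal, a log2 fold change with its error, a test score and p-values. Its interval ends were read as the start of a last step of 20 kb.

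Peaks on chromosomes 1 to 22 and X were merged (Python 3.11.15, NumPy 2.4.6) over the 4 libraries of a comparison, or over all 20 ATAC-seq libraries. Gained means a call in both resistant or engineered libraries and no call in either control, and lost means the opposite. The code for these calls was run on simulated lists, all cut from the same deposited list with regions removed. That run checks the code and not how calls hold across real replicates. Covered bases were compared by exact permutation with Benjamini-Hochberg adjustment. Coordinates are 1-based. Alternatives were 50% cover, a minimum score of 5 or an island false discovery rate of 0.01, lists of equal length (each list of a comparison cut to its best peaks), replicate pairs and leaving out each library. The members, gene lists, windows and sites were chosen with earlier results of these data known. By the naming rule, every region called in at least 2 ATAC-seq libraries was described. RNA libraries, input libraries and a second H3K27ac library for each group were left out, as they had no list of their own here.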

Additional observations from a re-analysis of the deposited data

How the results depend on the processing

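Nothing could pass a threshold of 0.05 with 2 libraries a group, so these values describe direction and size only. Counting a region as called at 50% cover gave 1 in place of 2 lost regions in resistant 451Lu cells, 2 in place of 1 in shp150 cells, 1 in place of 0 in shp150_AP1 cells and 1 in place of 2 gained regions in resistant WM983B cells. A minimum score of 5 gave 0 lost regions in resistant 451Lu cells, 1 gained and 0 lost in resistant WM983B cells, 1 in place of 2 resistant-only H3K27ac regions in WM983B, and in shp150_AP1 cells differences of -272.0 in place of 143.0 bp at JUND and 952.5 in place of 374.0 bp at JUN. Lists of equal length gave 1 resistant-only and 1 parental-only H3K27ac region in 451Lu and 1 parental-only region in WM983B. Chosen after the data were seen, the comparison with the 12 other 451Lu libraries gave 1 construct-only region at JUN in place of 0, and excluding the gene-body site gave -372.0 in place of 374.0 bp in shp150_AP1 cells. Leaving out each library in turn gave 0 to 1 gained and 2 to 4 lost regions in resistant 451Lu cells, 1 to 3 gained and 0 to 2 lost in AP1 cells, 0 to 1 gained and 1 to 2 lost in shp150 cells, 1 to 2 gained and 0 to 3 lost in shp150_AP1 cells, and 2 to 4 gained and 1 to 2 lost in resistant WM983B cells. It gave 0 to 1 gained H3K9me3 regions in resistant and in shp150_AP1 cells. Differences that changed sign were JUND in AP1 cells (-442.5 to 563.5 bp), JUNB in shp150 cells (-368.0 to 32.0 bp), and JUN (-170.0 to 792.0 bp) and JUND (-100.5 to 650.5 bp) in resistant WM983B cells. With the replicate number as a replicate block the JUND difference of shp150 cells was -1027.5 bp (exact sign-flip p = 0.5, the smallest that 2 pairs allow), and no call differed. Deviations of same-numbered libraries correlated between -0.010 and 0.001 in all comparisons but WM983B, where they deviated together (0.252). The labels do not say that a number marks a shared batch, so the WM983B comparison by label stands beside the paired one, in which the differences were 311.0 bp at JUN (p = 1), 432.0 bp at JUNB (p = 0.5) and 275.0 bp at JUND (p = 1) by exact sign flips. Depth is unknown for the peak lists.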
